A study of Mus musculus with 8 samples.

Results

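The 10 genes described are the co-stimulatory receptor Cd28, its relative Ctla4, the B7-family ligands Cd80, Cd86, Cd274, Pdcd1lg2, Icosl, Cd276 and Vtcn1, and Cd47. They were listed by name as members of the B7 and CD28 families with Cd47, and the list was chosen by the measured level of Cd28, which is higher in lines of intrahepatic cholangiocarcinoma (ICC) than in lines of hepatocellular carcinoma (HCC). All 10 were found among the 22180 genes measured, each with 1 probe set that names it alone. The difference of Cd28 between ICC and HCC lines chose the set, so it is given as a description, without a test. The other 9 members were listed by name rather than for their values, but with earlier results of these data known.

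T cells need a co-stimulatory signal beside that of their antigen receptor. CD28 on the T cell gives it when it meets CD80 or CD86 on a presenting cell, and CTLA4 binds the same ligands and dampens the response. Tumour cells can carry ligands of the family themselves, of which PD-L1 (Cd274) and PD-L2 (Pdcd1lg2) engage the inhibitory receptor PD-1, while CD47 binds SIRPA on macrophages and restrains phagocytosis.

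Expression was measured on 1 Affymetrix array for each of 8 clonal lines from mouse liver tumours of the C57BL/6 strain, 4 of them ICC and 4 HCC. Tumours of both types were driven by c-Myc and NrasG12V from the pCaMIN vector in transformed hepatocytes, so every line carries both oncogenes and no oncogene-free or normal liver sample is in the comparison. For ICC the vector was given by focal in vivo electroporation and for HCC by hydrodynamic tail-vein injection, and these routes cannot be told apart from tumour type. ICC9 and ICC10 are labelled female and ICC2.7 and ICC2.9 male, while among HCC lines HCC2.1 and HCC2.4 carry the female label and HCC1 and HCC4 the male one. The cells were untreated. Each line is 1 clone, and the labels do not say which lines share an animal or a tumour, so the p-values reflect no more than how these 8 lines vary.

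All values are log2 signals after RMA, and the median of the arrays lay between 5.02 and 5.09. The 8 columns of values span only 7 directions. The absent direction nearly coincided with ICC9's own deviation once type and sex were accounted for (cosine 0.989). It adds no spread, yet the fits of type, of sex and of the interaction between them count it as a residual degree of freedom (6 in the fit of type). Their SEs, intervals and p-values may therefore be too small. Fits in 1 labelled sex alone compare 2 ICC with 2 HCC lines. In the female-labelled fit the direction weighs most on ICC9 (0.782) and ICC10 (-0.538), so its p-values may be too small as well. Leaving out ICC9 lowered the genes called between types from 58 to 2, and leaving out HCC2.1 or HCC2.4 lowered them to 4 or 5. For the members and the listed pathway genes, calls of the main fits that are lost with this missing direction in the model or without ICC9 are given beside the results. Labelled sex held in all 8 lines. Xist, the RNA of the inactive X chromosome, measured 11.26 to 11.59 in the 4 female-labelled lines and 4.02 to 4.64 in the 4 male-labelled ones. Hepatocyte markers were low in both types, with 1 of 7 above the median gene level of 5.66, against 3 of 5 measured bile duct markers. To show where probe sets of genes that liver cells should not use lie, 1105 olfactory receptor genes were taken, and 95% of them had a mean at or below 5.04. Probe sets differ in brightness, so these levels rank no gene against another.

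Cd28 was higher in every ICC line than in any HCC line. It measured 6.79 in ICC9, 6.90 in ICC10, 6.00 in ICC2.7 and 6.93 in ICC2.9, against 5.15 in HCC1, 5.20 in HCC4, 5.15 in HCC2.1 and 5.33 in HCC2.4. The HCC lines lay within 0.18 of each other, just above the range of the olfactory receptor probe sets. ICC2.7 stood apart from the other ICC lines, toward the HCC lines. ICC lines averaged 6.66 ± 0.44 and HCC lines 5.21 ± 0.09 (SD, n = 4 each), which is a 2.73-fold difference. By labelled sex the difference was 1.61 log2 units in female and 1.29 in male lines, and leaving out each line in turn gave 1.36 to 1.67.

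On what the choice did not use, labelled sex, Cd28 showed no called difference. Female-labelled lines measured 0.22 log2 units more than male-labelled lines with tumour type in the model (95% interval -0.21 to 0.66, adjusted p = 0.614 by limma). The female minus male value was 0.38 in ICC and 0.07 in HCC lines.

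Ctla4, the inhibitory counterpart of Cd28, did not follow it. Its values lay between 2.76 and 2.93 in ICC lines and between 2.84 and 3.01 in HCC lines, with wide overlap and near the median of the olfactory receptor probe sets (2.93). The difference of -0.06 log2 units had a 95% interval of -0.24 to 0.12 (adjusted p = 0.793 by limma over all genes). Low signal limits what this shows, since a probe set near that level may not register a change.

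**Figure D1:**
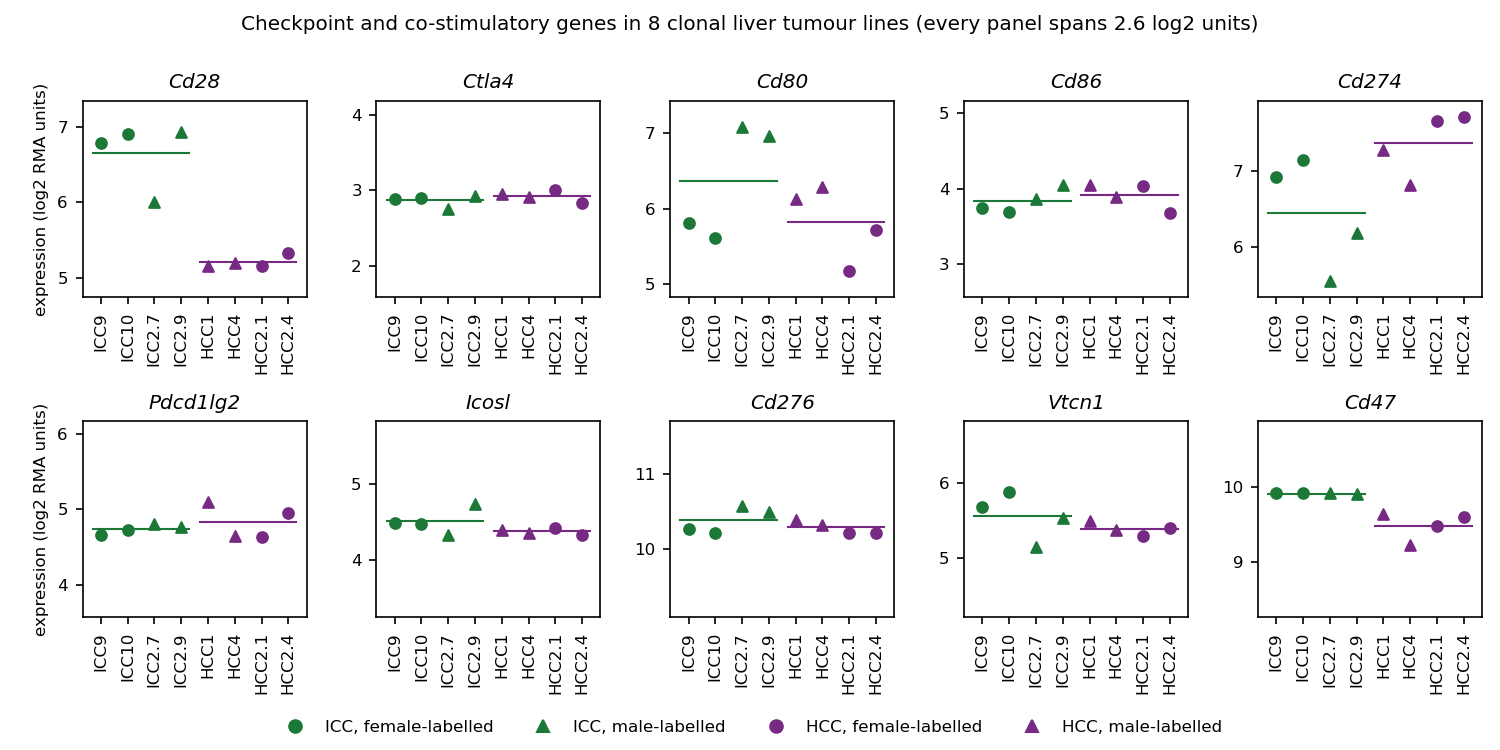
Log2 RMA expression of each of the 10 genes (vertical axes, each spanning 2.6 log2 units) in the 8 lines (horizontal axes), in green for ICC and purple for HCC, with circles for female-labelled and triangles for male-labelled lines and a bar at the mean of each type. Cd28 and Cd47 separate the types without overlap, while Cd80 and Cd274 vary inside each type with labelled sex, and the other 6 genes span less than 1 log2 unit.

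No other member passed the test between tumour types. Among all genes limma called 58 of 22180 at an adjusted p under 0.05, which is 0.261%, and 0 of the 9 members other than Cd28. Before adjustment 2 of the 9, Cd274 and Cd47, had p under 0.05, beside 14.1% of all genes.

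CD80 and CD86 are the ligands that CD28 and CTLA4 share, and their genes behaved differently across the lines. Cd86 measured 3.70 to 4.05 in ICC and 3.68 to 4.05 in HCC lines, inside the range of the olfactory receptor probe sets, with a difference of -0.08 (95% interval -0.34 to 0.19, adjusted p = 0.819 by limma). Cd80 had a much wider range. It measured 5.81 in ICC9, 5.62 in ICC10, 7.08 in ICC2.7 and 6.96 in ICC2.9, and 6.13 in HCC1, 6.29 in HCC4, 5.18 in HCC2.1 and 5.72 in HCC2.4. The male-labelled ICC lines were the highest, and both male-labelled HCC lines lay above all 4 female-labelled lines. Between types the lines overlapped and the difference of 0.54 was not called (95% interval -0.32 to 1.40, adjusted p = 0.566 by limma).

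Cd80 was lower in female- than in male-labelled lines, at 5.58 ± 0.28 against 6.62 ± 0.47 (SD, n = 4 each). The log2 difference was -1.03 (SE 0.16, adjusted p = 0.0154 by limma with tumour type in the model), a 2.05-fold difference. It was -1.31 within ICC and -0.76 within HCC lines, and the 4 female-labelled lines did not overlap the 4 male-labelled ones. Of the 10 members 2 were called between labelled sexes, Cd80 and Cd274. Among all genes 2.94% were called, 1.48% higher in female- and 1.47% higher in male-labelled lines, and 8.76% did not overlap. The call was lost without ICC9, ICC2.7, ICC2.9 or HCC2.1 (adjusted p by limma between 0.0555 and 0.0737) and kept with the missing direction in the model (0.0414). It was also lost after averaging the pair of lines in each type and sex (0.303). That fit keeps few degrees of freedom and called only 6 of all genes.

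CD274 and PDCD1LG2 are the ligands of PD-1. Cd274 measured 6.92 in ICC9, 7.15 in ICC10, 5.54 in ICC2.7 and 6.18 in ICC2.9, and 7.28 in HCC1, 6.82 in HCC4, 7.67 in HCC2.1 and 7.72 in HCC2.4. The male-labelled ICC lines were lowest and the female-labelled HCC lines highest, while ICC9 and ICC10 lay above HCC4. By type, ICC lines averaged 6.45 ± 0.73 and HCC lines 7.37 ± 0.42 (SD, n = 4 each). The difference of -0.925 log2 units had a 95% interval of -1.73 to -0.12 before adjustment and was not called over all genes (adjusted p = 0.294 by limma). With sex in the model the adjusted p was 0.0523.

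Between labelled sexes Cd274 ran opposite to Cd80. It measured 7.37 ± 0.39 in female- and 6.46 ± 0.76 in male-labelled lines (SD, n = 4 each), a log2 difference of 0.91 (SE 0.19, adjusted p = 0.0441 by limma with tumour type in the model), or 1.88-fold. The value was 1.18 within ICC and 0.65 within HCC lines. HCC1, labelled male, lay above ICC9 and ICC10, so the sexes overlapped when the types were pooled. This call was close to the threshold. It was lost without any single line other than HCC1 (ICC9, ICC10, ICC2.7, ICC2.9, HCC4, HCC2.1 or HCC2.4, adjusted p between 0.0621 and 0.160), with the missing direction in the model (0.0969), with each type-by-sex pair of lines taken as a random block (0.0904) and after averaging each pair (0.347).

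**Figure D2:**
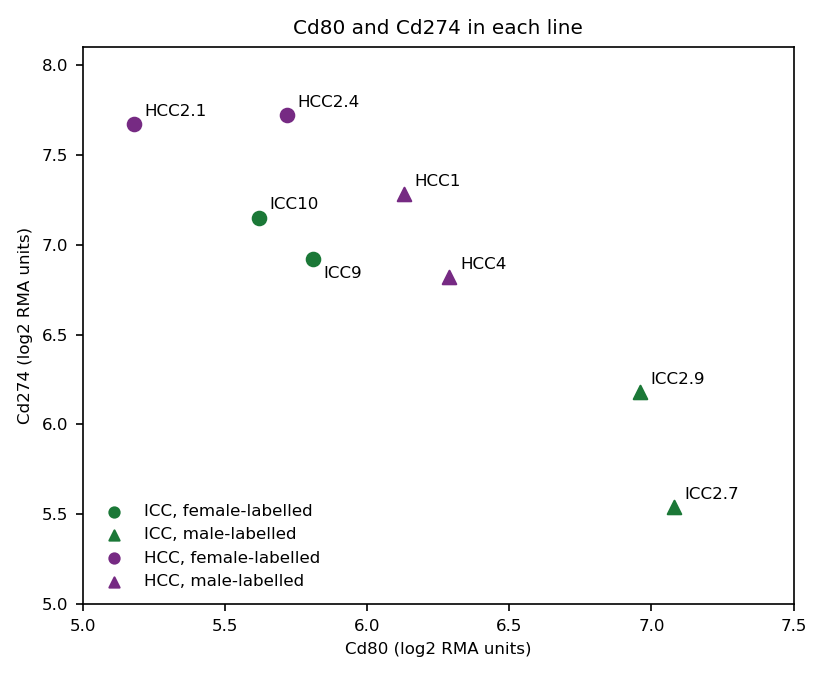
Cd274 (vertical axis) against Cd80 (horizontal axis), both in log2 RMA units, with 1 point for each of the 8 lines, in green for ICC and purple for HCC, circles for female-labelled and triangles for male-labelled lines. ICC2.7 and ICC2.9 are highest in Cd80 and lowest in Cd274, and HCC2.1 and HCC2.4 are highest in Cd274.

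Pdcd1lg2, the gene next to Cd274 in the RefSeq gene order, stayed within 4.63 to 5.10 over the 8 lines. Its differences were -0.10 between types (95% interval -0.37 to 0.18, adjusted p = 0.767 by limma) and -0.09 between labelled sexes (95% interval -0.36 to 0.18, adjusted p = 0.763 by limma). Only in HCC1, at 5.10, did it lie above the olfactory receptor range.

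Upstream sequences are shown for Cd80 and Cd274, the members whose levels differed between labelled sexes, for the Cd274 neighbour Pdcd1lg2 and for Cd47. They are the 250 bases before the annotated start from RefSeq (GRCm38.p6, all on the + strand, 5′ to 3′), at chr16:38458683-38458932, chr19:29367188-29367437, chr19:29410669-29410918 and chr16:49855404-49855653, and capitals mark matches to a motif. Of the 10 members 8 matched an entry, and Cd28 and Cd86 did not.
Cd80: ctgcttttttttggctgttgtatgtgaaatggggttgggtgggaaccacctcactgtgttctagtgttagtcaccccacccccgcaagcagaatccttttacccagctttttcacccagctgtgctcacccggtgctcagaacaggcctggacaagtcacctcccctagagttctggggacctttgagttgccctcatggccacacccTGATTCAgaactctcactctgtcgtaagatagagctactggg
Cd274: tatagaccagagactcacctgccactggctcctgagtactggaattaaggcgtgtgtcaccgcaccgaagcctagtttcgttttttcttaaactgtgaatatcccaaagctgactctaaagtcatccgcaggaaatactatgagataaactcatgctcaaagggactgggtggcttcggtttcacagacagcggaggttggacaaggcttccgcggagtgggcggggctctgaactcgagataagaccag
Pdcd1lg2: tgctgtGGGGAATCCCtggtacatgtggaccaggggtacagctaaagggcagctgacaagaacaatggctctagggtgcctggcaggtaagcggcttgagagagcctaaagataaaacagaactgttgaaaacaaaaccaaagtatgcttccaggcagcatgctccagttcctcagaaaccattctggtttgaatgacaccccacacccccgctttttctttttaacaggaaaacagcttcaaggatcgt
Cd47: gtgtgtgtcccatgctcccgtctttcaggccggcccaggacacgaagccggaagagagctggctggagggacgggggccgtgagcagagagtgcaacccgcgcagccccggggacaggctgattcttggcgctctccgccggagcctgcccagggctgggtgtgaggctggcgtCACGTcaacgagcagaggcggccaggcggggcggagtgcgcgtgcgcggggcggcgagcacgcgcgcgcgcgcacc

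Motifs were searched on both strands. They were the interferon response element core, the gamma-activated sequence TTCNNNGAA, the E-box CACGTG that MYC binds, the hypoxia response core ACGTG, which is also part of that E-box, the AP-1 site TGANTCA and the NF-kB consensus. The Cd80 stretch held 1 AP-1 match, TGATTCA at position -42 from the start, where 6.75% of 32851 promoter stretches of this length hold one. The Cd274 stretch held no match to any of the 6, so none of its letters are in capitals. Pdcd1lg2 held an NF-kB match at position -244 (7.25% of stretches), and Cd47 held the hypoxia core at position -76 (16.6%). These matches describe the letters only and were not tied to expression.

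Icosl, the ligand of the receptor ICOS, was flat. It measured 4.33 to 4.74 in ICC and 4.33 to 4.42 in HCC lines, with a difference of 0.13 (95% interval -0.09 to 0.35, adjusted p = 0.596 by limma) and the highest value in ICC2.9. Every line lay inside the olfactory receptor range.

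Cd276 (B7-H3), a ligand found on many solid tumours, was bright and nearly level in all lines, at 10.22 to 10.57 in ICC and 10.22 to 10.39 in HCC lines. The difference between types was 0.10 (95% interval -0.13 to 0.33, adjusted p = 0.706 by limma), so a difference above 1.26-fold in favour of ICC lay outside that interval. By labelled sex the 4 male-labelled lines, at 10.32 to 10.57, lay above the 4 female-labelled lines, at 10.22 to 10.27. That difference of -0.21 (SE 0.07) was not called (adjusted p = 0.197 by limma).

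Vtcn1 (B7-H4), an inhibitory member of the family, measured 5.68 in ICC9, 5.88 in ICC10, 5.15 in ICC2.7 and 5.53 in ICC2.9, with HCC lines at 5.29 to 5.49. ICC2.7 was the lowest of all 8 lines and ICC10 the highest. The difference between types was 0.17 (95% interval -0.16 to 0.51, adjusted p = 0.645 by limma), and it was 0.435 in female- but -0.09 in male-labelled lines. The term for a type difference that depends on sex was 0.525 (SE 0.21, adjusted p = 0.233 by limma), not called.

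That term, the interaction of type and labelled sex, was called by limma for 0 of the 10 members and 0% of all genes. Before adjustment it had p under 0.05 for 1 member, Vtcn1, beside 20.1% of all genes. The missing direction may make these p-values too small. It also separates the lines with 2. in their names from the others, and sex and naming cannot be told apart within a type.

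**Figure D3:**
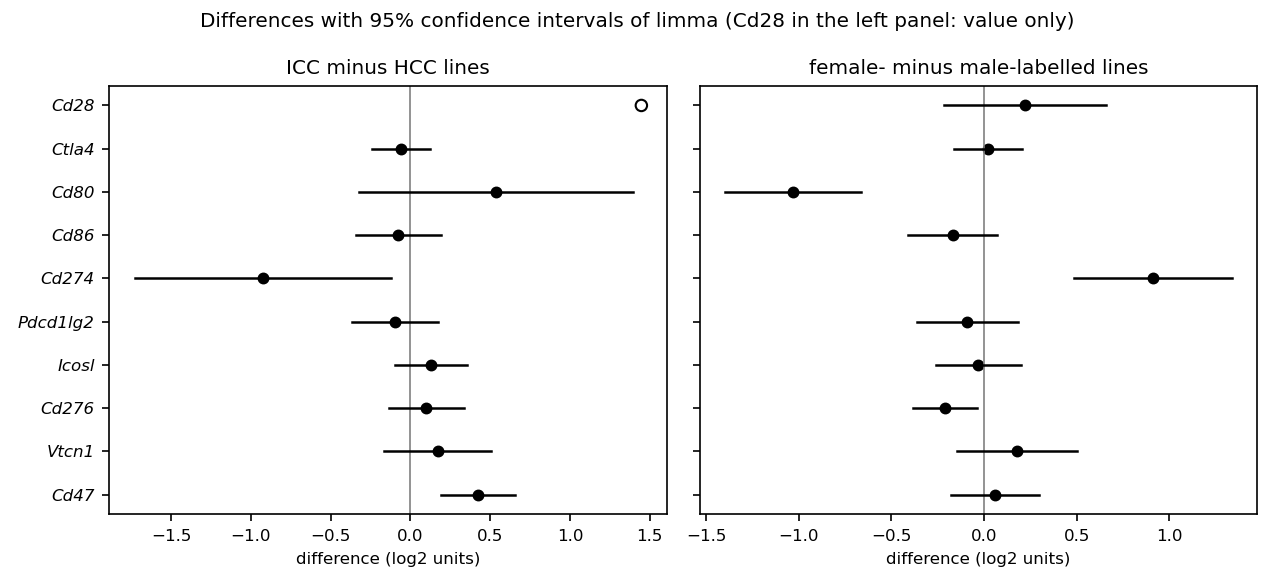
Log2 differences (horizontal axes) of the 10 genes between ICC and HCC lines on the left and between female- and male-labelled lines on the right, with 95% intervals of limma before adjustment as bars. Cd28 is drawn open on the left without an interval because its difference chose the set. Cd80 and Cd274 lie on opposite sides of 0 on the right, at -1.03 and 0.91.

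Cd47, the signal that restrains macrophages, was higher in every ICC line than in any HCC line, and almost the same in all 4 ICC lines. It measured 9.91 in ICC9, 9.91 in ICC10, 9.91 in ICC2.7 and 9.90 in ICC2.9, against 9.63 in HCC1, 9.22 in HCC4, 9.48 in HCC2.1 and 9.60 in HCC2.4. The HCC lines spread more, with HCC4 lowest. The difference was 0.425 log2 units (SE 0.10, 95% interval 0.19 to 0.66 before adjustment), a 1.34-fold difference that was not called over all genes (adjusted p = 0.125 by limma, from 0.083 to 0.505 over the 20 alternatives). Cd47 was 1 of the 9 members other than Cd28 whose types did not overlap, beside 8.63% of all genes in either direction and 4.19% with ICC higher. It differed by 0.06 between labelled sexes (95% interval -0.18 to 0.30).

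Cd28 lies in 1 cluster with Ctla4 and Icos on mouse chromosome 1, so the genes around it were compared in chromosomal order. On the side away from Ctla4, its neighbour Raph1, a regulator of the actin cytoskeleton, measured 8.36 to 8.80 in ICC and 7.19 to 7.92 in HCC lines. That difference of 0.905 (SE 0.16) was not called (adjusted p = 0.0696 by limma). Abi2, next to Raph1 and also an actin regulator, differed by 0.71 (SE 0.21, adjusted p = 0.200), and its HCC lines ranged from 7.61 in HCC2.1 to 8.46 in HCC4. Toward the other side the difference was -0.06 for Ctla4 and 0.155 for Icos, the inducible co-stimulator of the same family (adjusted p = 0.667). Icos measured 4.69 to 4.90 in ICC and 4.32 to 5.01 in HCC lines. Cyp20a1, next to Abi2, differed by 0.275 (adjusted p = 0.204 by limma) and Pard3b, next to Icos, by 0.305 (adjusted p = 0.273). Of the 10 genes around Cd28 limma called 0 between types. Raph1, Abi2, Cyp20a1 and Pard3b were higher in every ICC line than in any HCC line, beside 4.19% of all genes, and the other neighbours overlapped.

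**Figure D4:**
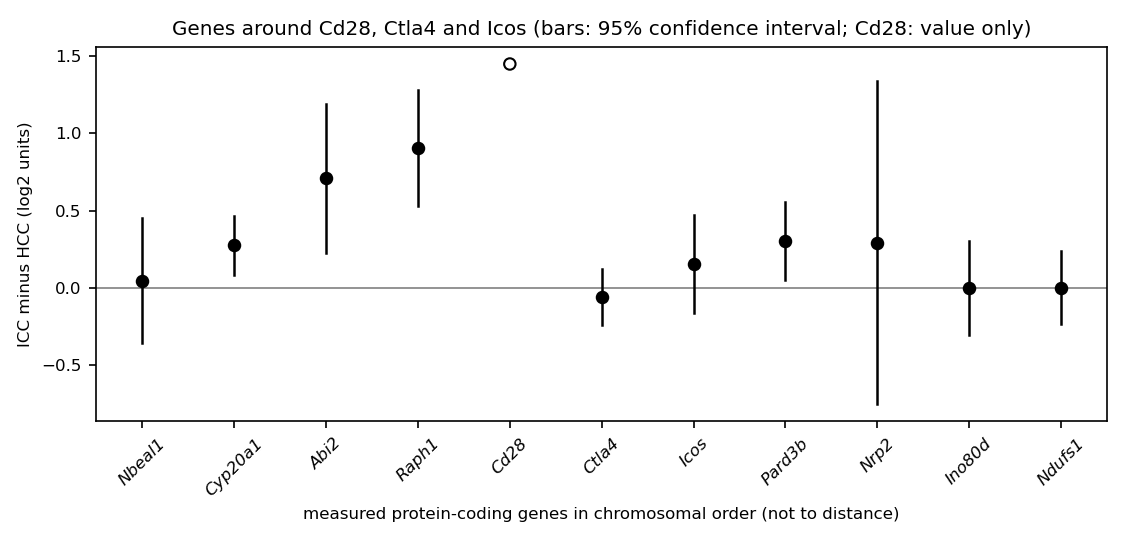
Log2 differences between ICC and HCC lines (vertical axis) for the 11 measured protein-coding genes around Cd28, Ctla4 and Icos in chromosomal order (horizontal axis, not to distance), with 95% intervals of limma before adjustment. Raph1 and Abi2 stand at 0.905 and 0.71 beside Cd28, which is drawn open without an interval at 1.45, and Ctla4 and Icos lie near 0.

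The genes with the pattern most like that of Cd28 were found by Pearson correlation over the 8 lines, as a description. All of these values share the arrays and the contrast between types, and each gene was picked for its rank among all genes. H2-Ab1, a chain of MHC class II, came first (r = 0.983) but over a narrow span, with 4.54 to 4.68 in ICC and 4.28 to 4.33 in HCC lines. Frmpd4 (0.969), Edem1 (0.968), Tcte1 (0.968), Def6 (0.966) and Col26a1 (0.964) followed. Of these 6 only Def6, an exchange factor that acts in lymphocyte signalling, differed on the scale of Cd28, with 6.51 to 6.94 in ICC and 5.34 to 5.67 in HCC lines. All 6 shared with Cd28 the lowest ICC value in ICC2.7, and they were picked for their likeness to Cd28. At the opposite end stood Tas2r135 (-0.981), Phtf2 (-0.980) and Smad6 (-0.979), an inhibitor of BMP signalling that measured 7.06 to 7.59 in ICC and 7.96 to 8.06 in HCC lines.

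T cells are the usual source of Cd28 RNA. Of the 11 measured T cell markers limma called 0 between types, 5 had a higher mean in ICC lines, and the median difference was -0.07. The markers' mean level was 4.73 to 4.80 in ICC lines and 4.84 to 4.88 in HCC lines. The 2 markers with p under 0.05 before adjustment were lower in ICC lines. Cd3e, a chain of the T cell receptor complex, measured 4.32 to 4.36 in ICC and 4.60 to 4.83 in HCC lines (adjusted p = 0.0899), and Cd8a measured 4.15 to 4.39 and 4.67 to 4.72 (adjusted p = 0.0798). The part of T cell RNA in the Cd28 difference was not tested. Of the T cell markers 7 had a mean inside the olfactory receptor range, as did 8 of 12 myeloid markers, 4 of 5 B cell markers, 3 of 5 endothelial markers and 2 of 7 fibroblast markers.

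Of 18 T cell co-receptors, among them Icos, Pdcd1 and Lag3, 10 lay inside the olfactory receptor range and limma called 0 between types (0 also before adjustment), with a median difference of -0.02 beside 0.00 over all genes. Lag3, an inhibitory receptor, came nearest with 0.195 (SE 0.10, adjusted p = 0.401), and Cd226, an activating receptor, differed by -0.135 (adjusted p = 0.502).

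Other ligands that tumour cells can show to T cells varied more from gene to gene. Of 23, 8 had p under 0.05 before adjustment (2 higher and 6 lower in ICC lines), beside 14.1% of all genes, limma called 0, and the median difference was -0.06. Fgl1, a ligand of LAG3, measured 3.57 to 3.92 in ICC and 2.98 to 3.34 in HCC lines (difference 0.605, SE 0.12, adjusted p = 0.0798). Tnfsf18, the ligand of GITR, differed by 0.66 (SE 0.18, adjusted p = 0.171). Both lay inside the olfactory receptor range, and Fgl1 was called with sex in the model and in female-labelled lines alone. Among the 6 lower in ICC lines was Nt5e (CD73), above the median gene level in every line. Its difference was -1.475 (SE 0.505, adjusted p = 0.247), and its types overlapped. Nt5e was called with sex in the model, with both sex and the missing direction, and in female-labelled lines alone.

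The signalling genes that act below CD28 in T cells were mostly above the median gene level (21 of 25 measured). Limma called 0 of them between types, 4 had p under 0.05 before adjustment, close to the 14.1% of all genes, and the median difference was 0.02. Fyn, a kinase of the Src family, measured 8.92 in ICC2.7 and 8.79 in ICC2.9, but 7.71 in ICC9 and 7.19 in ICC10, with all HCC lines at or below 7.20 (difference 1.03, SE 0.35, adjusted p = 0.250), and it was called in male-labelled lines alone. Il2, the cytokine that CD28 signalling induces in T cells, stayed between 2.57 and 3.04 in all lines (adjusted p = 0.216).

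Among 13 partners and regulators of CD47, limma called 0 between types and 3 had p under 0.05 before adjustment, all lower in ICC lines, beside 14.1% of all genes. Thrombospondin 1 (Thbs1), a secreted ligand of CD47, measured 9.56 to 11.64 in ICC and 11.71 to 12.51 in HCC lines, so the lines did not overlap and the direction was opposite to that of Cd47. Its difference of -1.57 (SE 0.43) was not called (adjusted p = 0.168), except in male-labelled lines alone. Lrp1, an endocytic receptor for calreticulin, differed by -0.45 (adjusted p = 0.274) and was called in female-labelled lines alone, a fit of 2 against 2 lines. Cd24a, also lower in ICC lines, differed by -0.68 (SE 0.27, adjusted p = 0.303 by limma), and its types overlapped. Cd24a was called with sex in the model, with both sex and the missing direction, and in female-labelled lines alone.

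Of 26 measured regulators of PD-L1 and CD80, limma called 0 between types and 3 had p under 0.05 before adjustment, no larger a share than the 14.1% of all genes. Hif1a, the oxygen-sensing transcription factor, measured 10.32 to 10.47 in ICC and 10.79 to 10.91 in HCC lines (difference -0.42, SE 0.08, adjusted p = 0.0696), the same side as Cd274. It was called among genes above the median level, with trended, robust variances and with sex in the model, but not with sex and the missing direction. Irf9, part of the interferon response complex, differed by -0.32 (adjusted p = 0.283).

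**Figure D5:**
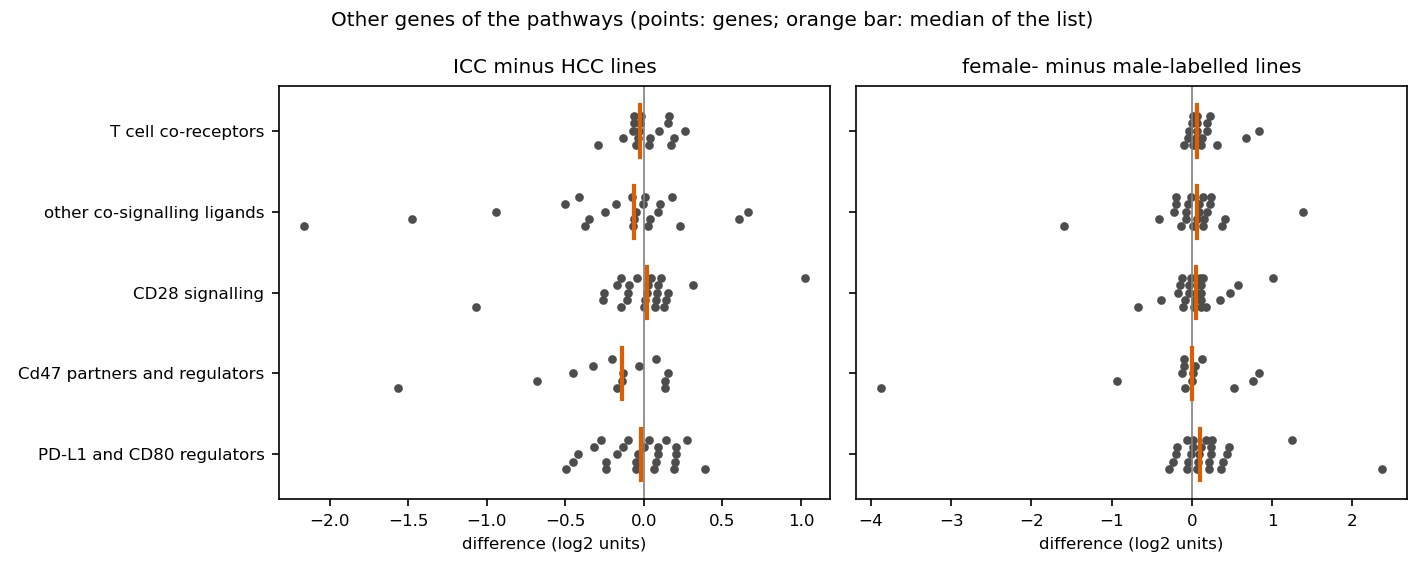
Log2 differences (horizontal axes) of the genes in 5 pathway lists between ICC and HCC lines on the left and between female- and male-labelled lines on the right, with a point for each gene and an orange bar at the median of the list. The medians lie between -0.14 and 0.02 on the left and between 0 and 0.10 on the right, while single genes reach -1.57 for Thbs1 on the left and -3.88 for Thbs2 on the right.

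Between labelled sexes limma called 7 of the 105 genes in these 5 lists, beside 2.94% of all genes, and they are named here because they were called. Of these, 3 came from the 26 measured regulators of PD-L1 and CD80. All 3 were higher in female-labelled lines, as was Cd274, while Cd80 was lower there. Among all 7 called genes 6 were higher in female-labelled lines, and a link to Cd274 or Cd80 was not tested. Ifngr1, a chain of the interferon gamma receptor, measured 9.70 in ICC9, 9.43 in ICC10, 10.16 in HCC2.1 and 10.11 in HCC2.4, and 8.35 to 8.93 in the male-labelled lines (log2 difference 1.25, SE 0.19, adjusted p = 0.0138). Cmtm6, which stabilises PD-L1 at the cell surface, measured 8.99 to 9.12 in female- and 8.41 to 8.78 in male-labelled lines (0.47, SE 0.10, adjusted p = 0.0454). B3gnt3, which glycosylates PD-L1, differed by 2.37 (SE 0.32, adjusted p = 0.0101), with 8.90 in HCC1 and 7.13 to 7.49 in the other male-labelled lines.

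These calls did not all hold without single lines. Ifngr1 lost its call without ICC9, ICC2.9, HCC2.1 or HCC2.4 (adjusted p between 0.0516 and 0.0616), and Cmtm6 without any line but HCC1 (ICC9, ICC10, ICC2.7, ICC2.9, HCC4, HCC2.1 or HCC2.4, 0.0691 to 0.200). Cmtm6 also lost it with quantile normalization (0.0525), with each type-by-sex pair as a random block (0.0959) and with the missing direction in the model (0.126). B3gnt3 kept it in all 8 such fits.

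The other 4 called genes came from the remaining lists. Tigit, an inhibitory receptor, measured 5.81 to 5.87 in female- and 4.91 to 5.07 in male-labelled lines (0.83, SE 0.07, adjusted p = 0.00216 by limma). Its mean of 5.42 was below the median gene level of 5.66. The male-labelled values lay near the upper end of the olfactory receptor range (5.04). Nt5e (CD73), which makes adenosine, differed by 1.39 (SE 0.20, adjusted p = 0.0135) and lost its call without ICC9, ICC2.7 or ICC2.9 (0.0506 to 0.0625). Cd24a, a surface protein that also restrains macrophages, differed by 0.755 (SE 0.08, adjusted p = 0.00461). Thrombospondin 2 (Thbs2) was the 1 gene lower in female-labelled lines. It measured 4.98 to 7.01 there and 8.32 to 10.75 in male-labelled lines (-3.88, SE 0.64, adjusted p = 0.0209). Its call was lost without ICC9, ICC2.7, ICC2.9 or HCC2.4 (0.056 to 0.0804). Tigit and Cd24a kept theirs in all 8 fits that leave out 1 line. After averaging the pair of lines in each type and sex, limma called 0 of the 7. That fit keeps few degrees of freedom and called only 6 of all genes, so losing a call there says little.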

How the data were processed

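RNA of 8 clonal mouse tumour lines was hybridised to 1 array each, 4 ICC and 4 HCC. The authors deposited log2 expression values with 2 decimals, made with RMA in the oligo package per the submitters' processing notes, with versions not given in the sources used. Of 39993 probe sets, 23521 name 1 gene, 1814 name several and 14658 name none here. For a gene with several probe sets, the one brightest on average was kept, which gave 22180 genes. Detection above background was not assessed, as no scanner files were used. Precision is limited by the number of arrays.

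Differences were fitted over all genes by lmFit and eBayes of limma 3.58.1 (R 4.3.3), with two-sided p-values adjusted by Benjamini-Hochberg over all genes and called under 0.05. Sex was compared with a term for tumour type, and the interaction with terms for both. Values after ± are SDs over lines, and SEs and intervals are limma's moderated ones. The fit was tested on simulated data with independent noise in each line. Those data held neither the missing direction nor any likeness between paired lines, so the test does not bear on those limits.

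The members and lists were chosen with earlier results of these data known. Named are all members, called genes of each list or else the 2 with the smallest p, the 6 genes most like and 3 least like Cd28 without predicted genes, and the 4 nearest measured genes on either side of Cd28, Ctla4 and Icos. Genes called between sexes and Xist were named after their values were seen, and so were Nt5e and Cd24a for their differences between types. Promoter stretches and gene order are from RefSeq (GRCm38.p6). Tables were made with Python 3.11.15.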

Additional observations from a re-analysis of the deposited data

Results flagged for a closer look

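In 10 of 152 groups of 4 lines examined, 1 line stood apart from the other 3 by Dixon's test, which flags about 1 in 20 groups by chance. Among the members these were Cd28 in ICC2.7 (6.00, other ICC lines 6.79 to 6.93) and Icosl in ICC2.9 (4.74, other male-labelled lines 4.33 to 4.40). Cd276 in ICC9 (10.27, other female-labelled lines all at 10.22) and Cd47 in ICC2.9 (9.90, other ICC lines all at 9.91) also met the criterion, because the other values are tied at the deposited precision. Among the other named genes, ICC9 stood apart in Cd3e (4.32, others 4.36) and Hnf4a (5.92, others 5.36 to 5.40), and ICC2.9 in Pard3b (6.28, others 5.87 to 5.91). HCC4 stood apart in Il2 (2.87, others 2.57 to 2.60) and Pecam1 (6.00, others 5.41 to 5.48), and HCC1 in Col1a1 (7.18, others 6.41 to 6.52).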

How the results depend on the processing

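Counts depended on how the lines were modelled more than single differences did. The 58 genes called between types became 103 among genes above the median level, 428 with sex in the model, 6 with a random block of type and sex, 12 with the missing direction, 119 with both of these terms (sex and direction), 696 in female- and 200 in male-labelled lines only, and 2 to 109 without single lines (2 without ICC9, 16 without ICC2.7, 28 without ICC2.9, 4 without HCC2.1, 5 without HCC2.4, 91 without HCC4 and 109 without HCC1). Of the 9 members other than Cd28, 0 were called in any of the 20 alternatives. Pathway genes called between types, 0 over all lines, were 1 above the median level, 1 with trended and robust variances (Hif1a both times), 4 with sex in the model (Fgl1, Nt5e, Cd24a and Hif1a), 2 with both terms, 4 in female-labelled lines (Fgl1, Nt5e, Lrp1 and Cd24a) and 3 in male-labelled lines (Vav3, Fyn and Thbs1), and 0 without any single line. The Cd28 difference kept its direction, from 1.29 to 1.67. The Vtcn1 type difference reversed in male-labelled lines (-0.09), without a call.

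Between labelled sexes the 653 genes became 280 with the missing direction, 334 with the random block and 6 with lines of one type and sex averaged, and 146 to 917 without single lines (146 without ICC9, 285 to 385 without ICC10, ICC2.7, ICC2.9, HCC2.1 or HCC2.4). The 2 members called became 1 with the missing direction, 1 with the block and 0 with averaging, and 0 to 2 without single lines (0 without ICC9, ICC2.7, ICC2.9 or HCC2.1). The 7 pathway genes became 0 with averaging and 3 to 7 without single lines. For the members called, these 3 models of the sex comparison were chosen after seeing the data. For the other counts between sexes and for single genes, so were all alternatives, including the fits without single lines. Members called for the interaction stayed at 0. For low genes (Ctla4, Cd86, Pdcd1lg2, Icosl, Vtcn1) no test above the median level was possible. No paired analysis was possible because the labels give no replicate numbers that groups share. Signal over background could not be assessed.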

Other observations

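Genes outside the family that the marker lists or the gene order around Cd28 hold also differed between labelled sexes, and were chosen for mention after their values were seen. Cd14, a receptor for bacterial lipopolysaccharide, was higher in female-labelled lines by 1.21 log2 units (SE 0.24, adjusted p = 0.0425 by limma). Krt19, a keratin of bile ducts, was higher by 2.19 (SE 0.24, adjusted p = 0.00483) and Acta2, smooth muscle actin, lower by -0.52 (SE 0.11, adjusted p = 0.046). Of the 10 genes around Cd28, 3 were called, all higher in female-labelled lines, beside 1.48% of all genes. They were the semaphorin receptor Nrp2 (1.19, adjusted p = 0.0397), the chromatin remodelling gene Ino80d (0.34, adjusted p = 0.041) and Nbeal1 (0.46, adjusted p = 0.0428). Whether these calls and those of Cd14, Krt19 and Acta2 hold without single lines or with the missing direction was not examined. Over all genes, calls between labelled sexes fell from 653 to 146 without ICC9.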
